A study of Mus musculus with 12 samples.

Results

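Toll-like receptors are the membrane proteins with which immune cells recognise conserved molecules of microbes. Their transcripts were followed in spleens of C57BL/6 mice with septic peritonitis. Of 10 receptor genes (Tlr1 to Tlr9 and Tlr13), 9 had a probe set that the array annotation assigns to that gene alone, each had 1 such probe set, and these 9 were among 19938 genes measured on 12 Affymetrix arrays. Tlr5 was not analysed here. The labels place the arrays in 3 groups of 4 biological replicates. The septic TLR-deficient mice (M5 to M8 by the running numbers in the titles) carry "Trifxmyd" in their titles, read here as the adaptors Trif and MyD88, and underwent colon ascendens stent peritonitis, in which a stent through the bowel wall lets gut contents leak into the abdomen. The septic wildtype mice (M9 to M12) underwent the same operation, and the untreated wildtype mice (M13 to M16) had no treatment. No untreated TLR-deficient mice were among the samples. The alleles, the sex and age of the animals, and the time from operation to sampling are not given in the labels, so the receptor genes themselves cannot be taken as deleted in any group.

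The receptors divide by place and ligand. TLR1, TLR2 and TLR6 work at the cell surface, where TLR2 pairs with either of the others to bind bacterial lipoproteins, and TLR4 binds lipopolysaccharide together with its partner MD-2, encoded by Ly96. TLR3, TLR7, TLR8, TLR9 and TLR13 sit in endosomes and bind nucleic acids. MyD88 passes on the signal of all of these except TLR3, which uses Trif alone, and TLR4 uses both adaptors. In the spleen, TLR7 and TLR9 are known mainly from B cells and plasmacytoid dendritic cells, and TLR2 mainly from neutrophils, monocytes and macrophages.

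Several arrays were unlike the others of their label. The array of septic wildtype replicate 2 (M10) correlated with the others at 0.765 to 0.809 across genes, and its log2 values had a standard deviation of 1.52, against 2.11 to 2.24 on the other arrays. The array most correlated with it carried the same label in 5 of 12 cases. M8 was closest to M9, M12 to M13, and M16 to M5, each across a label. Of 14 defining markers of spleen cells, the B cell gene Ms4a1 lay between 8.55 and 11.03 on the 11 arrays other than M10, the T cell gene Cd3e between 7.66 and 9.33 and the red pulp macrophage gene Vcam1 between 9.97 and 11.58. Others were below the array median of 5.22 on M5. These were the macrophage gene Cd163 at 4.15, the B cell gene Fcer2a at 4.99, the neutrophil gene Ly6g at 5.02 and the plasmacytoid dendritic cell gene Siglech at 4.70. The same genes were also below the median of 5.39 on M6, at 4.69, 5.18, 4.80 and 5.37. Ly6g was below the array's median on M8, M9, M10 and M16 as well. Other markers were well above the median of 5.22 on M5. These were the macrophage gene Spic at 10.11, the B cell genes Cd79a at 9.50 and Cr2 at 7.86, and the neutrophil genes S100a8 at 8.34 and S100a9 at 8.22. Siglech was the only marker of its cell type among the 14. All 9 receptors had their lowest of 12 values on M10, as did 35.3% of all genes, while 40.5% of all genes had their highest there. Group names below therefore stand for the labels. Whether labels or titles were assigned to the wrong arrays, for instance by a shift of 1 array, was not tested, and any such error would change what every group mean and difference stands for. Differences that M10 moved by a large factor are also given without it. Values are log2 expression, and the number of arrays limits their precision. Levels were compared only within a gene, since the probe sets of different genes differ in brightness.

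Within peritonitis, spleens of TLR-deficient mice were set against those of wildtype mice, to ask which differences go with the Trif and MyD88 background. Of the 9 receptors, 7 had a higher mean in septic TLR-deficient spleens, against 43.9% of all genes (56.1% were lower), with a median difference of 0.12, where the median over all genes was -0.06. Tlr2 had the largest positive difference at 0.79 (SE 0.35), followed by Tlr7 at 0.78 (SE 0.52), and Tlr9 had the largest negative one at -0.52 (SE 0.50). Without M10 these were 0.42 for Tlr2, 0.16 for Tlr7 and -0.89 for Tlr9. Without M10 only 3 of the 9 had a higher mean and the median was -0.13. No receptor passed an adjusted p of 0.05 in limma, and neither did any other gene (0% of 19938). At an unadjusted p under 0.05 there were 1 receptor, Tlr2, and 6.65% of all genes. In 0 of the 9 receptors were the 4 arrays of one label all above the 4 of the other, which was the case for 3.8% of all genes (2.05% higher and 1.76% lower in septic TLR-deficient spleens).

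Septic wildtype and untreated wildtype spleens were compared to ask which differences go with peritonitis when both adaptors are intact. The sex-linked RNA Xist, given below, was high on M9 to M11 and M16 and low on M12 to M15. For most of these arrays operation and sex therefore cannot be told apart. All 9 receptors had a lower mean in septic wildtype spleens, against 44.9% of all genes (55.1% were higher), with a median difference of -0.59, where the median over all genes was 0.07. The largest differences were those of Tlr7 at -1.15 (SE 0.52), Tlr2 at -0.72 (SE 0.35) and Tlr8 at -0.72 (SE 0.27). This order rested on M10, without which Tlr8 came first at -0.57, before Tlr7 at -0.53 and Tlr3 at -0.44, and Tlr2 was at -0.34. Without M10, 7 of the 9 were lower, with Tlr1 at 0.42 and Tlr4 at 0.14 on the other side, and the median was -0.34. No gene passed in limma (0% of 19938). Unadjusted p-values under 0.05 were found for 2 receptors, Tlr7 and Tlr8, and for 8.81% of all genes. No receptor had groups without overlap, against 6.42% of all genes (3.68% higher and 2.74% lower in septic wildtype spleens).

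Septic TLR-deficient spleens differ from untreated wildtype spleens by label in both genotype and operation. Xist also differed, being high on M5 to M8 and low on M13 to M15, though high on M16. Of the 9 receptors, 7 had a lower mean in septic TLR-deficient spleens, against 48.1% of all genes (51.9% were higher), with a median difference of -0.37, where the median over all genes was 0.01. Tlr9 had the largest difference at -1.11 (SE 0.50), followed by Tlr8 at -0.70 (SE 0.27) and Tlr13 at -0.55 (SE 0.30). No gene passed in limma (0% of 19938). Unadjusted p-values under 0.05 were found for 2 receptors, Tlr8 and Tlr9, and for 1.88% of all genes. For 1 receptor, Tlr8, all 4 septic TLR-deficient arrays lay below all 4 untreated ones, as for 0.998% of all genes. A further 2.4% of genes were higher without overlap, which gives 3.4% in either direction. The 3 comparisons share groups, so they do not support each other.

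**Figure D1:**
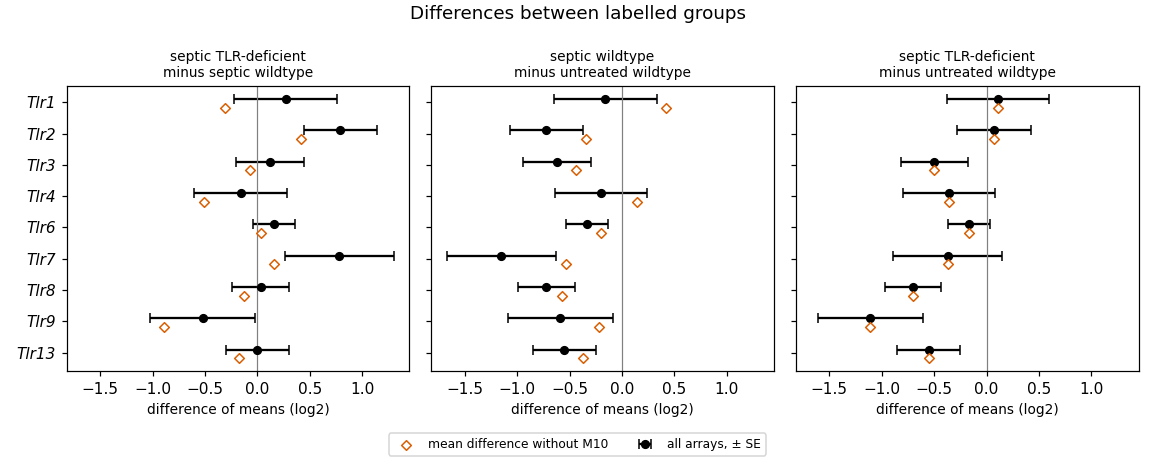
Differences of mean log2 expression between labelled groups for 9 Toll-like receptor genes, 1 panel per comparison. Black points with bars are the limma estimate over all arrays with its standard error, and open diamonds are the difference of means without M10. In the comparison of septic wildtype with untreated wildtype spleens all black points lie left of 0, between -1.15 and -0.16, and the diamonds of Tlr1 and Tlr4 lie right of it.

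Among the surface receptors of lipoproteins, Tlr2 showed the highest values on arrays of different labels. It stood at 8.05, 8.02, 7.41 and 7.20 in septic TLR-deficient spleens (M5 to M8), at 7.11, 5.74, 7.24 and 7.41 in septic wildtype spleens (M9 to M12) and at 7.12, 7.57, 7.73 and 7.96 in untreated wildtype spleens (M13 to M16). M5, M6 and M16 were the 3 highest arrays, and the groups overlapped in every comparison. The mean was 7.67 ± 0.43 in septic TLR-deficient, 6.88 ± 0.76 in septic wildtype and 7.59 ± 0.36 in untreated wildtype spleens (SD, n = 4 each). Tlr2 had adjusted p = 0.59 in limma between the septic groups, where its difference was 0.79, and 0.42 without M10. In bulk tissue, fewer cells of a type and less RNA per cell cannot be told apart, here and in all results below.

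Tlr1, a partner of TLR2 for triacylated lipoproteins, ranged from 7.46 to 8.82 on the 11 arrays other than M10 and stood at 6.23 on M10. Its mean was 8.24 ± 0.62 in septic TLR-deficient, 7.97 ± 1.16 in septic wildtype and 8.12 ± 0.40 in untreated wildtype spleens (SD, n = 4 each), differences smaller than the spread within the groups. The difference of septic TLR-deficient from septic wildtype was 0.27 with all arrays and -0.31 without M10. Tlr6, the partner for diacylated lipoproteins and a neighbour of Tlr1 on chromosome 5, varied least of the 9 and lay between 6.43 and 7.05 on the 11 arrays. Its mean was 6.69 ± 0.17 in septic TLR-deficient, 6.53 ± 0.37 in septic wildtype and 6.86 ± 0.11 in untreated wildtype spleens (SD, n = 4 each). Tlr6 was at 6.98, 6.92, 6.73 and 6.81 in untreated wildtype spleens, and M9, M10 and M11 of the septic wildtype group were its 3 lowest arrays at 6.47, 6.16 and 6.43.

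**Figure D2:**
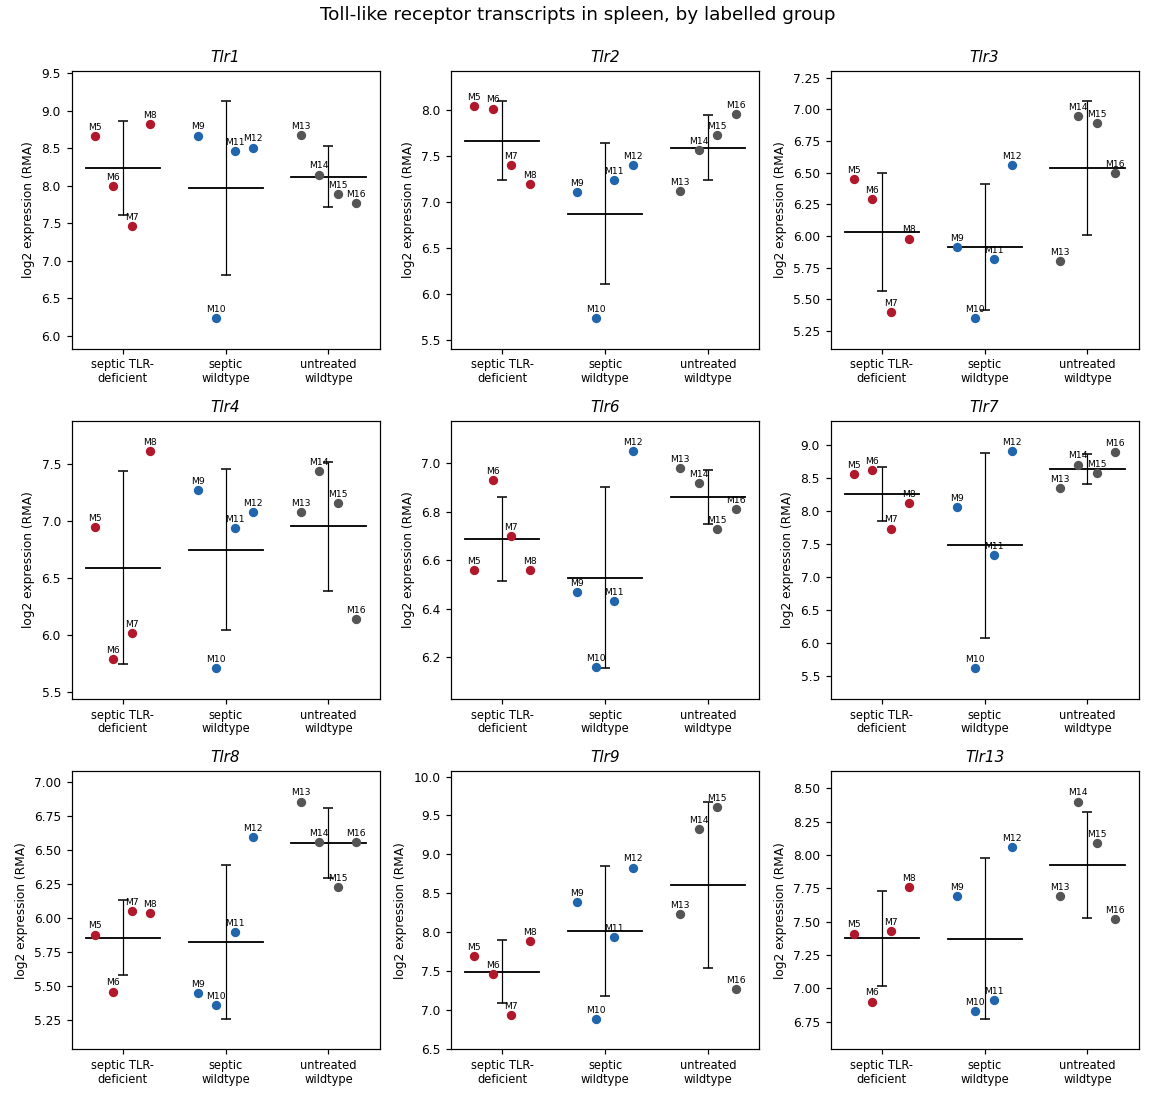
Log2 expression of 9 Toll-like receptor genes on 12 arrays, 1 panel per gene with its own vertical axis, by labelled group. Points are arrays named by their title number, horizontal lines are group means and bars are standard deviations (n = 4). M10 is the lowest point in all 9 panels, and for Tlr8 the untreated arrays, between 6.23 and 6.86, lie above all septic TLR-deficient arrays, between 5.46 and 6.05.

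Promoter sequences of 7 of the 9 measured receptors were found in RefSeq's GRCm38.p6 table, as windows of 300 bases from 250 before to 50 after a start site. Tlr1 and Tlr6 had 2 windows each, which gave 9 windows in all. They were searched on both strands for the kappaB consensus of NF-kappaB, for the core AANNGAAA bound by interferon regulatory factors (IRF) and for AGGAAGT, bound by ETS factors such as the myeloid and B cell factor PU.1. These matches are in capitals in the sequences below, which are written 5′ to 3′ on the gene's strand. They are shown for Tlr2 and Tlr3, the receptors with a kappaB match, and for Tlr9, which had the widest range over the 11 arrays other than M10. Tlr2 lies at chr3:83841559-83841858 (minus strand), Tlr3 at chr8:45410331-45410630 (minus strand) and Tlr9 at chr9:106222348-106222647 (plus strand).
Tlr2: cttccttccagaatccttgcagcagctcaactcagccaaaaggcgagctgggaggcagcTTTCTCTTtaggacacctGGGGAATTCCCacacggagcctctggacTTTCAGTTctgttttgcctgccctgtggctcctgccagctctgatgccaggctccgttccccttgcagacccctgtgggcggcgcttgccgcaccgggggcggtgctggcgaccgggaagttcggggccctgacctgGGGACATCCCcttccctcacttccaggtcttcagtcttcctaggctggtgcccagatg
Tlr3: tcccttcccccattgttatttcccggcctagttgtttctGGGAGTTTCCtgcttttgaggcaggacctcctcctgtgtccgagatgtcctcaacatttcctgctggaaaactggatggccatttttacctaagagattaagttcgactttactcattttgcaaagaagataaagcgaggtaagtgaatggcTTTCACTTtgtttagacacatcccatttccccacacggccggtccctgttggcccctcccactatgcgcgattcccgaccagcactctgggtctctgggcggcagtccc
Tlr9: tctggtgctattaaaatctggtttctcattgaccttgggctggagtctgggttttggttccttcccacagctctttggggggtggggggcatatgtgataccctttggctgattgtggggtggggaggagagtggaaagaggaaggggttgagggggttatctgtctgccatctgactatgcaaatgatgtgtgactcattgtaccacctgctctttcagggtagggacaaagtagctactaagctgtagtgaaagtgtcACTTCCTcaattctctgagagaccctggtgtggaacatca
The Tlr2 window held 4 kappaB matches counted over both strands, of which 3 lie in the run GGGGAATTCCC and include 1 stretch that matches on either strand, and 2 IRF matches. The Tlr3 window held 1 kappaB and 1 IRF match, and the Tlr9 window 1 ETS match, after the start site, and neither of the other motifs. Counted by window, 2 of the 9 held a kappaB match, against 4.51% of all 32851 windows in the table. An IRF match was found in 4 of the 9 windows, against 23.9%, and an ETS match in 4, against 9.35%. Counted by gene with a match in any window, these were 2 of 7 receptors for kappaB, 4 for IRF and 3 for ETS, against 5.14%, 26.7% and 10.7% of 27025 genes. A match is a description of letters in these windows.

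Tlr4, the lipopolysaccharide receptor, stood at 6.95, 5.79, 6.02 and 7.61 in septic TLR-deficient spleens (M5 to M8), at 7.27, 5.71, 6.94 and 7.08 in septic wildtype spleens (M9 to M12) and at 7.08, 7.44, 7.16 and 6.14 in untreated wildtype spleens (M13 to M16). The lowest arrays were M6, M7, M10 and M16, so each label held at least 1 low array. Means were 6.59 ± 0.84 in septic TLR-deficient, 6.75 ± 0.71 in septic wildtype and 6.95 ± 0.57 in untreated wildtype spleens (SD, n = 4 each). The differences of -0.16 between the septic groups, -0.20 of septic wildtype from untreated wildtype and -0.36 of septic TLR-deficient from untreated wildtype were each smaller than their standard error of 0.44. Without M10 the first was -0.51 and the second 0.14.

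The partners of TLR4 were measured on the same arrays. Ly96, encoding MD-2, stood at 7.74, 6.89, 5.81 and 7.59 in septic TLR-deficient spleens, at 7.08, 5.56, 7.07 and 6.63 in septic wildtype spleens and at 7.10, 7.25, 5.95 and 8.10 in untreated wildtype spleens. M10 and M7 were its 2 lowest arrays and were low for Tlr4 as well, while M16 was the highest for Ly96 and among the 4 lowest for Tlr4. Cd14, which hands lipopolysaccharide to the TLR4 complex, stood at 9.65, 10.49, 10.44 and 6.09 in septic TLR-deficient spleens, at 5.71, 6.62, 6.75 and 7.09 in septic wildtype spleens and at 8.41, 6.98, 6.58 and 11.26 in untreated wildtype spleens. M5, M6, M7 and M16 were the 4 highest arrays for Cd14. Cd180, a B cell relative of TLR4, was lowest on the same arrays, at 7.73, 7.47 and 7.92 on M5, M6 and M7 and 7.46 on M16, and lay between 8.06 and 9.95 on the other 8.

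Tlr9, the receptor for unmethylated CpG DNA, had the widest range of the 9 on the 11 arrays other than M10, whereas over all 12 arrays Tlr7 had a wider one. It stood at 7.69, 7.46, 6.94 and 7.89 in septic TLR-deficient spleens (M5 to M8), at 8.39, 6.89, 7.94 and 8.83 in septic wildtype spleens (M9 to M12) and at 8.23, 9.32, 9.61 and 7.27 in untreated wildtype spleens (M13 to M16). The 4 septic TLR-deficient arrays lay below all untreated arrays except M16. Means were 7.49 ± 0.41 in septic TLR-deficient, 8.01 ± 0.83 in septic wildtype and 8.61 ± 1.07 in untreated wildtype spleens (SD, n = 4 each). The difference of septic TLR-deficient from untreated wildtype was -1.11, with an unadjusted p of 0.0442 and an adjusted p that rounds to 1 in limma.

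Tlr9 was the only receptor to pass the threshold under any setting tried. With replicates 1 to 3 of each label and without M10, a choice of arrays made with their likeness already known, its difference of septic TLR-deficient from untreated wildtype was -1.69 with adjusted p = 0.0302 in limma, and 3.39% of all genes passed there. With replicates 1 to 3 and M10 kept, the difference was the same at -1.69 and the adjusted p was 0.336. In that fit with M10, 0.166% of all genes passed. Both fits left out M16, the untreated array where Tlr9 was lowest, at 7.27. In them Xist lay between 9.71 and 10.47 on M5 to M7 and between 3.73 and 4.33 on M13 to M15. Sex, genotype and operation therefore cannot be told apart in this difference of Tlr9. In the other comparisons no receptor passed with replicates 1 to 3, where the shares of all genes that passed were 0.707% between septic TLR-deficient and septic wildtype and 0.0451% between septic wildtype and untreated wildtype, or 5.03% and 0.0953% without M10.

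Unc93b1, the protein that carries the endosomal receptors out of the endoplasmic reticulum, stood at 9.61, 9.38, 8.88 and 10.03 in septic TLR-deficient spleens, at 10.06, 8.66, 10.19 and 10.17 in septic wildtype spleens and at 10.32, 10.37, 10.40 and 9.04 in untreated wildtype spleens. As for Tlr9, M7, M10 and M16 were its 3 lowest arrays. Marker levels of B cells (8 of 9 markers measured, mean log2 value) ranged from 8.11 to 10.08 on septic TLR-deficient, from 8.24 to 10.22 on septic wildtype and from 8.28 to 9.85 on untreated wildtype arrays. They were at 8.40, 8.34, 8.11 and 8.28 on M5, M6, M7 and M16 and 8.24 on M10, and at 9.56 or more on the other 7. Markers of plasmacytoid dendritic cells (5 of 6 measured) lay between 5.90 and 6.08 on M5, M6, M7 and M16, at 5.88 on M10 and between 6.39 and 6.95 elsewhere. Neutrophil markers (10 of 10 measured) ranged from 6.58 to 7.49 on septic TLR-deficient, from 6.58 to 8.40 on septic wildtype and from 6.01 to 8.43 on untreated wildtype arrays. The part of these cells in the values of Tlr9 was not tested.

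Tlr7, Tlr8 and Tlr13 lie on the X chromosome. Tlr7, which binds single-stranded RNA, stood at 8.56, 8.63, 7.74 and 8.13 in septic TLR-deficient spleens (M5 to M8), at 8.07, 5.62, 7.34 and 8.91 in septic wildtype spleens (M9 to M12) and at 8.36, 8.71, 8.58 and 8.90 in untreated wildtype spleens (M13 to M16). M10 was far below the others, and M12 of the septic wildtype group was the highest array. Its mean was 8.26 ± 0.41 in septic TLR-deficient, 7.48 ± 1.40 in septic wildtype and 8.64 ± 0.22 in untreated wildtype spleens (SD, n = 4 each). The difference of septic wildtype from untreated wildtype was -1.15, and -0.53 without M10, with adjusted p = 0.439 in limma for all arrays.

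Tlr8, whose human counterpart binds single-stranded RNA, stood at 5.88, 5.46, 6.05 and 6.04 in septic TLR-deficient spleens (M5 to M8), at 5.45, 5.36, 5.90 and 6.60 in septic wildtype spleens (M9 to M12) and at 6.86, 6.56, 6.23 and 6.56 in untreated wildtype spleens (M13 to M16). M12 was the one septic array inside the range of the untreated arrays. Means were 5.86 ± 0.28 in septic TLR-deficient, 5.83 ± 0.57 in septic wildtype and 6.55 ± 0.26 in untreated wildtype spleens (SD, n = 4 each). Both septic groups differed from untreated wildtype by similar amounts, -0.70 (SE 0.27) for septic TLR-deficient and -0.72 (SE 0.27) for septic wildtype, neither past the threshold. These 2 differences share the untreated arrays.

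Tlr13, which binds a sequence of bacterial ribosomal RNA in mice, stood at 7.41, 6.90, 7.43 and 7.76 in septic TLR-deficient spleens (M5 to M8), at 7.69, 6.83, 6.91 and 8.06 in septic wildtype spleens (M9 to M12) and at 7.69, 8.40, 8.09 and 7.52 in untreated wildtype spleens (M13 to M16). M12, M14 and M15 were the 3 highest arrays. Means were 7.38 ± 0.35 in septic TLR-deficient, 7.37 ± 0.60 in septic wildtype and 7.92 ± 0.40 in untreated wildtype spleens (SD, n = 4 each).

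Sex-linked transcripts were unevenly spread over the labels. Xist, the RNA that silences an X chromosome in females, lay between 3.73 and 4.33 on M12, M13, M14 and M15 and between 8.94 and 10.94 on the other 8 arrays. The Y-linked genes Eif2s3y, Kdm5d and Uty were high on M12 to M15, with Eif2s3y between 7.21 and 7.95 there. By label, the arrays with high Xist were all of septic TLR-deficient, M9 to M11 of septic wildtype and M16 of untreated wildtype. Sex was thus largely confounded with the contrast of septic and untreated spleens. On M12 to M15 Tlr8 lay between 6.23 and 6.86, Tlr13 between 7.69 and 8.40 and Tlr7 between 8.36 and 8.91. M16, an untreated array with Xist at 9.91, had Tlr8 at 6.56, Tlr13 at 7.52 and Tlr7 at 8.90. The part of the animals' sex in these values was not tested.

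**Figure D3:**
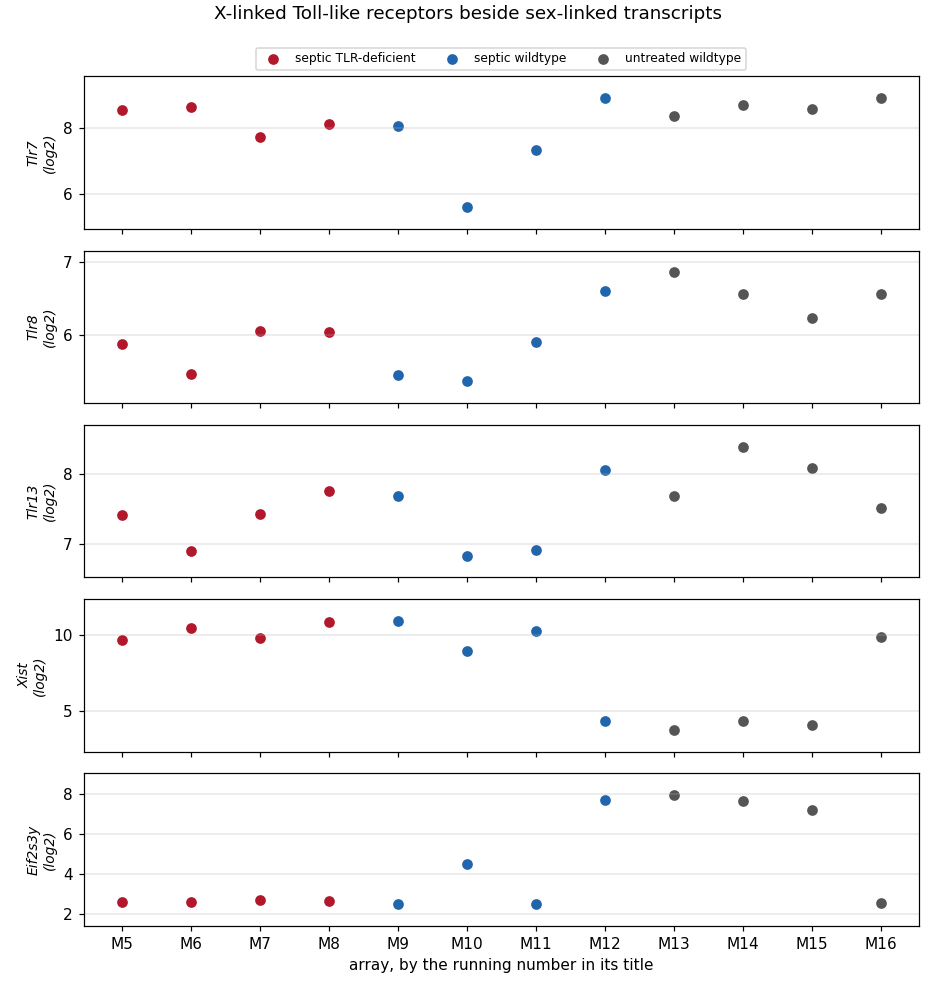
Log2 expression of the X-linked receptors Tlr7, Tlr8 and Tlr13, of Xist and of the Y-linked gene Eif2s3y on each of 12 arrays in the order of their title numbers, coloured by labelled group, with 1 panel and its own vertical axis per gene. Xist is at 4.33 or less and Eif2s3y at 7.21 or more on M12 to M15, where Tlr8 lies between 6.23 and 6.86.

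Tlr3, the receptor for double-stranded RNA, which is itself an interferon-induced gene, stood at 6.45, 6.29, 5.40 and 5.98 in septic TLR-deficient spleens (M5 to M8), at 5.91, 5.35, 5.82 and 6.56 in septic wildtype spleens (M9 to M12) and at 5.80, 6.95, 6.89 and 6.50 in untreated wildtype spleens (M13 to M16). High and low arrays occurred under every label. Means were 6.03 ± 0.46 in septic TLR-deficient, 5.91 ± 0.50 in septic wildtype and 6.54 ± 0.53 in untreated wildtype spleens (SD, n = 4 each). The difference of septic wildtype from untreated wildtype was -0.62 (SE 0.32), and -0.44 without M10.

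The values were also set out by title number in 3 blocks, M5 to M7 with M16, M8 to M11, and M12 to M15. These blocks cut across the labels and were drawn up with the likeness of these arrays already known, so they are given as ranges only, with no mean and no test. Tlr2 lay between 7.41 and 8.05 on M5 to M7 and M16, above its range of 5.74 to 7.24 on M8 to M11, and it lay between 7.12 and 7.73 on M12 to M15. Tlr2 was the 1 receptor of 9 without overlap between these first blocks, against 10.2% of all genes (5.22% higher and 4.98% lower). Without M10, Tlr9 was lower without overlap as well, and the share of all genes was 19.2% (6.74% higher and 12.5% lower). Tlr9 lay between 6.94 and 7.69 on M5 to M7 and M16, between 6.89 and 8.39 on M8 to M11 (from 7.89 without M10) and between 8.23 and 9.61 on M12 to M15.

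Tlr4, Tlr9 and Tlr13 were lower on every array of M5 to M7 and M16 than on any of M12 to M15. These were 3 of 9 receptors, against 7.1% of all genes lower without overlap (4.79% were higher, 11.9% in either direction). For Tlr4 the ranges were 5.79 to 6.95 on M5 to M7 and M16 and 7.08 to 7.44 on M12 to M15, and for Tlr13 they were 6.90 to 7.52 and 7.69 to 8.40 on the same blocks. Between M8 to M11 and M12 to M15, a further 3 receptors did not overlap, and all 3 of them, Tlr6, Tlr7 and Tlr8, were lower on M8 to M11. This was the case for 5.09% of all genes (4.38% were higher, 9.47% in either direction). Their ranges on M8 to M11 were 6.16 to 6.56 for Tlr6, 5.62 to 8.13 for Tlr7 and 5.36 to 6.04 for Tlr8, against 6.73 to 7.05, 8.36 to 8.91 and 6.23 to 6.86 on M12 to M15. The same 3 were lower without overlap when M10 was left out, as were 6.35% of all genes (7.87% were higher, 14.2% in either direction). Tlr1 and Tlr3 overlapped between all pairs of blocks.

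**Figure D4:**
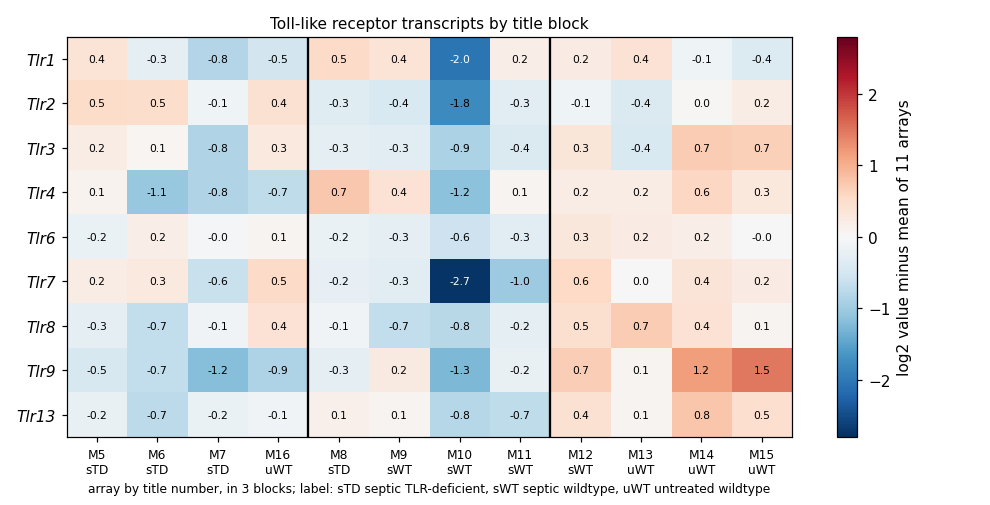
Log2 expression of 9 Toll-like receptor genes (rows) on 12 arrays (columns, in 3 blocks of title numbers parted by black lines, with the label under each array), as the value minus the gene's mean over the 11 arrays other than M10. Red is above and blue below that mean. Tlr9 is blue on M5, M6, M7 and M16, red on M12, M14 and M15 and nearly white on M13. The column of M10 is blue throughout.

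The genes with the most similar profiles were sought for the 3 receptors that varied most over the 11 arrays other than M10, Tlr9 (SD 0.84), Tlr4 (SD 0.60) and Tlr7 (SD 0.49). Likeness was the root mean square difference between log2 values centred on each gene's mean. Nearest to Tlr9 were BC147527 at 0.23, Plau, the urokinase that activates plasmin, at 0.29, and Mmp9, a matrix protease of neutrophil granules, at 0.30, where the median over all genes was 0.83. Mmp9 was at 8.08, 7.53, 8.55 and 8.47 on M12 to M15 and between 5.76 and 7.05 on the other 8 arrays. Nearest to Tlr4 were Tbc1d5, a regulator of the endosomal GTPase Rab7, at 0.14, the phosphatase Dusp19 at 0.16 and Rgs19, which turns off G protein signals, at 0.17 (median over all genes 0.60). Nearest to Tlr7 were the helicase Ascc3 at 0.13, and Pkib, an inhibitor of protein kinase A, and Gm8995, both at 0.17 (median over all genes 0.53).

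The rest of the pathway was described by 6 lists, of which no member passed in limma in any comparison. Of 9 genes for delivery to the endosome and receptor cleavage, 6 were higher in septic TLR-deficient than in septic wildtype spleens (median 0.20, and -0.18 without M10), and 0 of 9 were higher in septic wildtype or in septic TLR-deficient than in untreated wildtype spleens (medians -0.45 and -0.33). Without M10 the median of septic wildtype against untreated wildtype was -0.16. Ctsl, the lysosomal protease cathepsin L, which can cleave endosomal receptors, stood at 9.40, 8.74, 8.93 and 8.53 in septic TLR-deficient spleens, at 8.22, 7.09, 8.46 and 8.28 in septic wildtype spleens and at 9.52, 8.82, 9.10 and 9.38 in untreated wildtype spleens. The septic wildtype arrays lay below all arrays of both other groups, with differences of 0.89 (SE 0.30) for septic TLR-deficient minus septic wildtype and -1.19 (SE 0.30) for septic wildtype minus untreated wildtype. Without M10 they were 0.58 and -0.88. Lgmn, a lysosomal endopeptidase, had a difference of -1.34 of septic wildtype from untreated wildtype, and -0.65 without M10. Ctss, cathepsin S, had -0.45, and -0.21 without M10. Of the 9 genes, 1, Ctsl, was higher without overlap in septic TLR-deficient than in septic wildtype spleens, against 2.05% of all genes. There M11 at 8.46 was close to M8 at 8.53. Ctsl and Lgmn, 2 of the 9, were lower without overlap in septic wildtype than in untreated wildtype spleens, against 2.74% of all genes.

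Of 6 genes for lipopolysaccharide binding, 5 were higher in septic TLR-deficient than in septic wildtype spleens (median 0.28, and 0.06 without M10), and 1 was higher in septic wildtype than in untreated wildtype spleens (median -0.63, and -0.26 without M10). Against untreated wildtype, 1 of the 6 was higher in septic TLR-deficient spleens (median -0.29). Lbp, the carrier of lipopolysaccharide in plasma, had a difference of -0.65 (SE 0.25) of septic wildtype from untreated wildtype and of -0.56 (SE 0.25) of septic TLR-deficient from untreated wildtype. Cd36, a scavenger receptor that aids TLR2, had a difference of -0.68 (SE 0.36) of septic wildtype from untreated wildtype, and -0.28 without M10.

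Of 6 adaptors, 3 were higher in septic TLR-deficient than in septic wildtype spleens (median 0.14, and -0.03 without M10), 2 in septic wildtype than in untreated wildtype spleens (median -0.35) and 2 in septic TLR-deficient than in untreated wildtype spleens (median -0.04). The adaptors named in the titles were measured in the septic TLR-deficient spleens: Myd88 stood there at 9.64, 9.42, 9.44 and 8.62, and Ticam1, which encodes Trif, at 5.93, 5.80, 5.89 and 5.92. In septic wildtype spleens Myd88 stood at 8.70, 6.48, 8.78 and 9.20 and Ticam1 at 6.16, 5.64, 6.22 and 6.04, and in untreated wildtype spleens Myd88 stood at 8.87, 9.14, 9.32 and 9.75 and Ticam1 at 6.28, 6.57, 6.38 and 5.76. The values of both genes in septic TLR-deficient spleens overlapped with those of each wildtype group. Where the probe sets lie relative to the altered part of each gene is not known here, so they do not check the labels. Pik3ap1, which links receptors to phosphoinositide kinase, had a difference of -0.87 (SE 0.41) of septic wildtype from untreated wildtype, and -0.40 without M10.

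All 11 measured kinases and ubiquitin ligases, of 14 listed, were higher in septic TLR-deficient than in septic wildtype spleens, against 43.9% of all genes. Their median difference was 0.49, and 0.21 without M10. Of these 11 genes, 1 was higher in septic wildtype than in untreated wildtype spleens (median -0.52, and -0.15 without M10). In septic TLR-deficient spleens 6 were higher than in untreated wildtype spleens (median 0.01). Tab3, a subunit that links TRAF6 to the kinase TAK1 and lies on the X chromosome, stood at 7.69, 8.06, 8.35 and 7.58 in septic TLR-deficient spleens, at 7.38, 6.70, 6.85 and 7.45 in septic wildtype spleens and at 7.36, 7.44, 7.31 and 7.55 in untreated wildtype spleens. The 4 septic TLR-deficient arrays were the highest of the 12, with M8 at 7.58 close to M16 at 7.55. Against septic wildtype, 2 of the 11 genes were higher without overlap, and 2.05% of all genes were. Against untreated wildtype it was 1 of the 11, Tab3, and 2.4% of all genes. The ubiquitin ligase Traf6 had a difference of 0.92 (SE 0.42) and the kinase Ikbke of 0.84 (SE 0.39) between the septic groups, and 0.44 and 0.43 without M10.

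All 8 measured brakes of the pathway, of 9 listed, were higher in septic TLR-deficient than in septic wildtype spleens, against 43.9% of all genes. Their median difference was 0.87, and 0.75 without M10. Against untreated wildtype, 0 of 8 were higher in septic wildtype spleens (median -0.75) and 6 in septic TLR-deficient spleens (median 0.15). Irak3, a kinase relative without activity that holds back MyD88 signalling, stood at 9.26, 8.96, 8.48 and 7.89 in septic TLR-deficient spleens, at 7.87, 7.32, 7.56 and 7.12 in septic wildtype spleens and at 7.67, 7.51, 7.43 and 8.86 in untreated wildtype spleens. The septic groups did not overlap for Irak3, with a difference of 1.18 (SE 0.35), where 2.05% of all genes were higher without overlap. Of 8 induced targets, 7 were higher in septic TLR-deficient than in septic wildtype spleens (median 1.14), 1 in septic wildtype than in untreated wildtype spleens (median -1.25) and 6 in septic TLR-deficient than in untreated wildtype spleens (median 0.30). The chemokine gene Cxcl2 was at 9.68, 10.52, 10.06 and 10.57 on M5, M6, M7 and M16 and between 4.52 and 6.50 on the other 8 arrays, and Tnfaip3, an enzyme that ends NF-kappaB signals, was at 10.25, 10.32, 9.64 and 10.91 on the same 4 arrays and between 6.76 and 8.47 elsewhere. On these 4 arrays Tlr2 lay between 7.41 and 8.05 and Tlr9 between 6.94 and 7.69.

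Tlr12, a further mouse receptor outside the 10, had its 2 highest values on M10 and M11. M10 held the highest of 12 values for 40.5% of all genes. Tlr12 stood at 4.96, 5.30, 5.26 and 5.57 in septic TLR-deficient spleens, at 5.70, 6.16, 6.29 and 5.43 in septic wildtype spleens and at 5.48, 5.73, 5.37 and 5.21 in untreated wildtype spleens. Its difference between the septic groups was -0.62 (SE 0.22) with adjusted p = 0.59 in limma.

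Marker levels of further cell types were given as the mean log2 value of each list. Monocyte markers (6 of 7 measured) ranged from 6.75 to 7.54 on septic TLR-deficient, from 6.63 to 7.60 on septic wildtype and from 7.35 to 8.33 on untreated wildtype arrays, with M14 and M15 both at 8.33. Tlr3, Tlr9 and Tlr13 were also highest on M14 and M15, and the other receptors were not. Neutrophil markers were highest on M14 at 8.43 and M12 at 8.40. Markers of red pulp macrophages (10 of 10 measured) ranged from 8.54 to 9.85 on septic TLR-deficient, from 8.19 to 9.84 on septic wildtype and from 8.89 to 9.58 on untreated wildtype arrays. Markers of conventional dendritic cells (7 of 7 measured) were between 5.72 and 5.84 on M5, M6, M7 and M16, at 6.10 on M10 and between 6.80 and 7.29 on the other 7 arrays. Their lowest single marker had a mean of 5.85 over the 12 arrays. That mean includes the 7 arrays where the list was high, so it gives no level on M5, M6, M7 and M16. The part of these cells in the receptors' values was not tested.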

How the data were processed

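RNA from spleen was turned into cDNA and amplified with an Affymetrix WT kit, per the labels' protocols, which also hold a sentence on Shh mutants that does not bear on these mice. The deposited log2 expression values were made by the authors with RMA in Affymetrix Expression Console, per the submitters' processing notes, with no versions given. RMA corrects background, equalises the distributions of the arrays and summarises probe sets. It was not stated whether all arrays were processed in 1 run. The annotation names a single gene for 21789 of 35557 probe sets, several genes for 1621 and no gene for 12147. Symbols were updated by gene identifier for 21698 probe sets. Where a gene had several probe sets, the one with the highest mean over the 12 arrays was used, which gave 19938 genes.

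Comparisons were fitted with limma 3.58.1 in R 4.3.3, with 1 mean per labelled group over all 12 arrays, two-sided, with Benjamini-Hochberg adjustment over all genes and a threshold of 0.05. The fit was also run on simulated data with independent normal noise. These held no array like M10 and no likeness across labels, so they do not check the fit for these arrays. The labels call the replicates biological and say no more of the animals. The p-values set a difference of means against the spread between these arrays within labels, including arrays unlike their label. Members, lists, title blocks and alternatives were chosen with earlier results of these data known. Named were the receptors, fixed pathway genes, the 2 members of each list with the largest differences per comparison, and 3 nearest genes for each of 3 receptors. Promoters came from RefSeq (GRCm38.p6). Alternatives were normalization, centring, a filter at percentile 25, probe set averaging, fits to 2 groups, variance models, array weights, a replicate block, left-out arrays and a threshold of 0.01.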

Additional observations from a re-analysis of the deposited data

Results flagged for a closer look

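Among 123 groups of 4 arrays (41 genes in 3 labels), 16 values stood apart from the other 3 arrays of their label, by a gap beyond Dixon's critical value for 4 samples, given here as a share of the group's range. By chance a share of about 0.05 of such groups holds a value this far apart. Of the 27 groups of the receptors, 1 held such a value: Tlr1 on M10 at 6.23 (0.915 of the range). M10, septic wildtype replicate 2, also stood apart for Ctss (0.853), Ikbke (0.844), Lgmn (0.84), Tab2 (0.972), Traf6 (0.933) and Unc93b1 (0.91), low in each. M16, untreated wildtype replicate 4, stood apart from its label for Cxcl2 (0.952), Il6 (0.887), Irak3 (0.833) and Tnfaip3 (0.887), high in each, and for Lbp (0.908) and Unc93b1 (0.939), low in both. The remaining values were Cxcl2 low on M8, septic TLR-deficient replicate 4 (0.857), BC147527 low on M7, septic TLR-deficient replicate 3 (0.987), and Ikbke high on M15, untreated wildtype replicate 3 (0.941).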

How the results depend on the processing

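Of 27 receptor differences (9 genes in 3 comparisons), 17 kept their sign under every setting tried and 18 whichever of 12 arrays was left out. Only Tlr9, reported above, passed the threshold anywhere. Genes called numbered 0 in each comparison, and 0 whichever array was left out. With replicates 1 to 3 only there were 141 between septic TLR-deficient and septic wildtype, 9 between septic wildtype and untreated wildtype and 33 between septic TLR-deficient and untreated wildtype, and 1002, 19 and 675 in the same order without M10 as well. Array weights gave 1 call between septic wildtype and untreated wildtype. The number of receptors higher in septic TLR-deficient than in septic wildtype spleens ranged from 3 (without M10) to 8 with 1 array left out. For septic wildtype against untreated wildtype it ranged from 0 to 2 with 1 array left out, and was 1 after a further quantile normalization, with array weights and with replicates 1 to 3 without M10. For septic TLR-deficient against untreated wildtype it ranged from 0 to 2 with 1 array left out and was 1 with replicates 1 to 3, with or without M10.

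Signs turned as follows, with 1 array left out unless stated. Between septic TLR-deficient and septic wildtype, Tlr1 ranged from -0.31 to 0.52 (-0.31 with array weights, -0.53 with replicates 1 to 3 without M10), Tlr3 from -0.07 to 0.34, Tlr4 from -0.51 to 0.11, Tlr8 from -0.13 to 0.29 and Tlr13 from -0.18 to 0.23 (-0.28 after quantile normalization, -0.17 with array weights, -0.05 with replicates 1 to 3 without M10), and Tlr6 was -0.01 after quantile normalization. Between septic wildtype and untreated wildtype, Tlr1 ranged from -0.39 to 0.42 (0.13 after quantile normalization, 0.50 with array weights, 0.33 with replicates 1 to 3 without M10) and Tlr4 from -0.48 to 0.14. Between septic TLR-deficient and untreated wildtype, Tlr1 ranged from -0.08 to 0.37 (-0.20 with replicates 1 to 3, with or without M10) and Tlr2 from -0.08 to 0.23. The cause of these changes was not tested. Settings that leave arrays out also fit fewer of them, while quantile normalization and array weights kept all 12 arrays. The replicate number as a block gave 0 calls in each comparison and turned no sign. Of 12 pairs of arrays with the same number, 3 deviated together at a correlation over 0.1, so the numbers were not taken to pair the animals.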
